A study of Bos taurus with 11 samples.

Results

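The miR-23, miR-27 and miR-24 clusters were examined as 8 listed mature miRNAs, chosen by name, of which 6 had a row among the 796 miRNA rows of the deposited count table. These were *bta-miR-23a*, *bta-miR-27a-3p*, *bta-miR-27a-5p*, *bta-miR-27b*, *bta-miR-24* and *bta-miR-24-3p*. The other listed names, *bta-miR-23b-3p* and *bta-miR-23b-5p*, were not analysed here. The libraries of small RNA came from mammary gland biopsies of dairy cows, 5 Holstein and 6 Montbéliarde animals with 1 library each. All cows were lactating, at mid-lactation and on the same diet, without any treatment, and their ages were not used here. The question was how the miRNA content of the gland differed between these breeds. Libraries are named by their tags, which run from CNLX1 to CNLX9 for Holstein and from CNLX13 to CNLX23 for Montbéliarde, so that an effect of the order of the tags cannot be told apart from breed.

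A single primary transcript gives rise to a miR-23, a miR-27 and a miR-24, and mammals carry a pair of such clusters, called a and b. The miR-27 miRNAs are known to repress *PPARG* and to restrain fat cell formation and lipid synthesis. The miR-23 miRNAs are known to repress glutaminase, and miR-24 to repress genes that drive the cell cycle. In the bovine RefSeq annotation, *MIR23A*, *MIR27A* and *MIR24-2* were neighbours inside the locus *LOC132345691*, with *NANOS3* before and *ZSWIM4* after them. *MIR23B*, *MIR27B* and *MIR24-1* were neighbours inside *AOPEP*, between *MIR2475* and *FANCC*. The genome assembly of this annotation is not the one the authors used, and no coordinates are given. The mature *miR-24-3p* can come from either cluster, and its row does not tell them apart.

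Counts summed over all miRNA rows, called counted reads here, came to between 6087865 and 16808976 per library. The median was 10786816 in Holstein and 9107961 in Montbéliarde. Reads that several rows share enter this sum more than once, so it is above the number of separate reads. Levels are normalized read counts, in which 1 size factor per library has been divided out. They are read counts and not numbers of molecules, so that the order of different miRNAs is an order of reads. Of the marker miRNAs of epithelial, stromal, endothelial, leukocyte, erythroid and muscle cells that had a row, none was at 0 in every library. The biopsies differed in these markers. The summed level of the 6 epithelial markers, the miR-200 family and *miR-205*, spanned 367535 to 466746 in Holstein libraries and 180093 to 469496 in Montbéliarde libraries, with the lowest values in CNLX21 (180093) and CNLX15 (181193). The 5 stromal markers were *miR-199a-3p*, *miR-199a-5p*, *miR-199b*, *miR-214* and *miR-145*. Their summed level spanned 11478 to 15782 in Holstein libraries and 12204 to 32234 in Montbéliarde libraries, with the highest value in CNLX15. The log2 fold change, Montbéliarde over Holstein, was negative for *miR-145* (-0.27) and positive for the other stromal markers. It was positive for *miR-205* (0.38) and negative for the miR-200 family. None of these markers had an adjusted p of at most 0.05 by edgeR's quasi-likelihood test. In bulk tissue, fewer cells of a type and less RNA per cell cannot be told apart.

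*miR-27b*, of cluster b, was by far the most abundant of the 6 miRNAs. It ranked 8 among all rows, with 299315 ± 35096 normalized read counts (SD, n = 11), and held 3.05% ± 0.286 (SD, n = 11) of the counted reads. *miR-27a-3p*, its cluster a counterpart, ranked 48 with 14583 ± 2210 normalized read counts. It was followed by *miR-23a*, at rank 63 with 6366 ± 788, and by *miR-24-3p*, at rank 72 with 5046 ± 1630. The order of *miR-27b* above *miR-27a-3p* above the other members held in all 11 libraries. *miR-23a* and *miR-24-3p*, neighbours in this order, did not keep it everywhere, as *miR-23a* was the higher in 9 of 11 libraries and *miR-24-3p* in CNLX15 and CNLX21. The rows *miR-27a-5p* (rank 273, 37.5 ± 6.18) and *miR-24* (rank 283, 32.6 ± 6.97) lay far below, within each other's spread. They rested on 24 to 68 and on 15 to 58 raw reads per library, where counting error adds to the spread between cows.

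The 3 abundant members *miR-23a*, *miR-27b* and *miR-27a-3p* varied little from cow to cow, and *miR-24-3p* varied more. The SD of the log2 level over the 11 libraries was 0.18 for *miR-23a* and 0.18 for *miR-27b*. Of the 214 rows with a mean of at least 100 normalized read counts, 12 and 15 rows, respectively, had a smaller SD. *miR-27a-3p* had an SD of 0.20, with 22 rows below it. For *miR-24-3p* the SD was 0.39, with 108 rows below it, near the middle of these rows. The highest library exceeded the lowest by 1.43 times for *miR-23a*, by 1.56 times for *miR-27b*, by 1.66 times for *miR-27a-3p* and by 2.60 times for *miR-24-3p*.

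**Figure D1:**
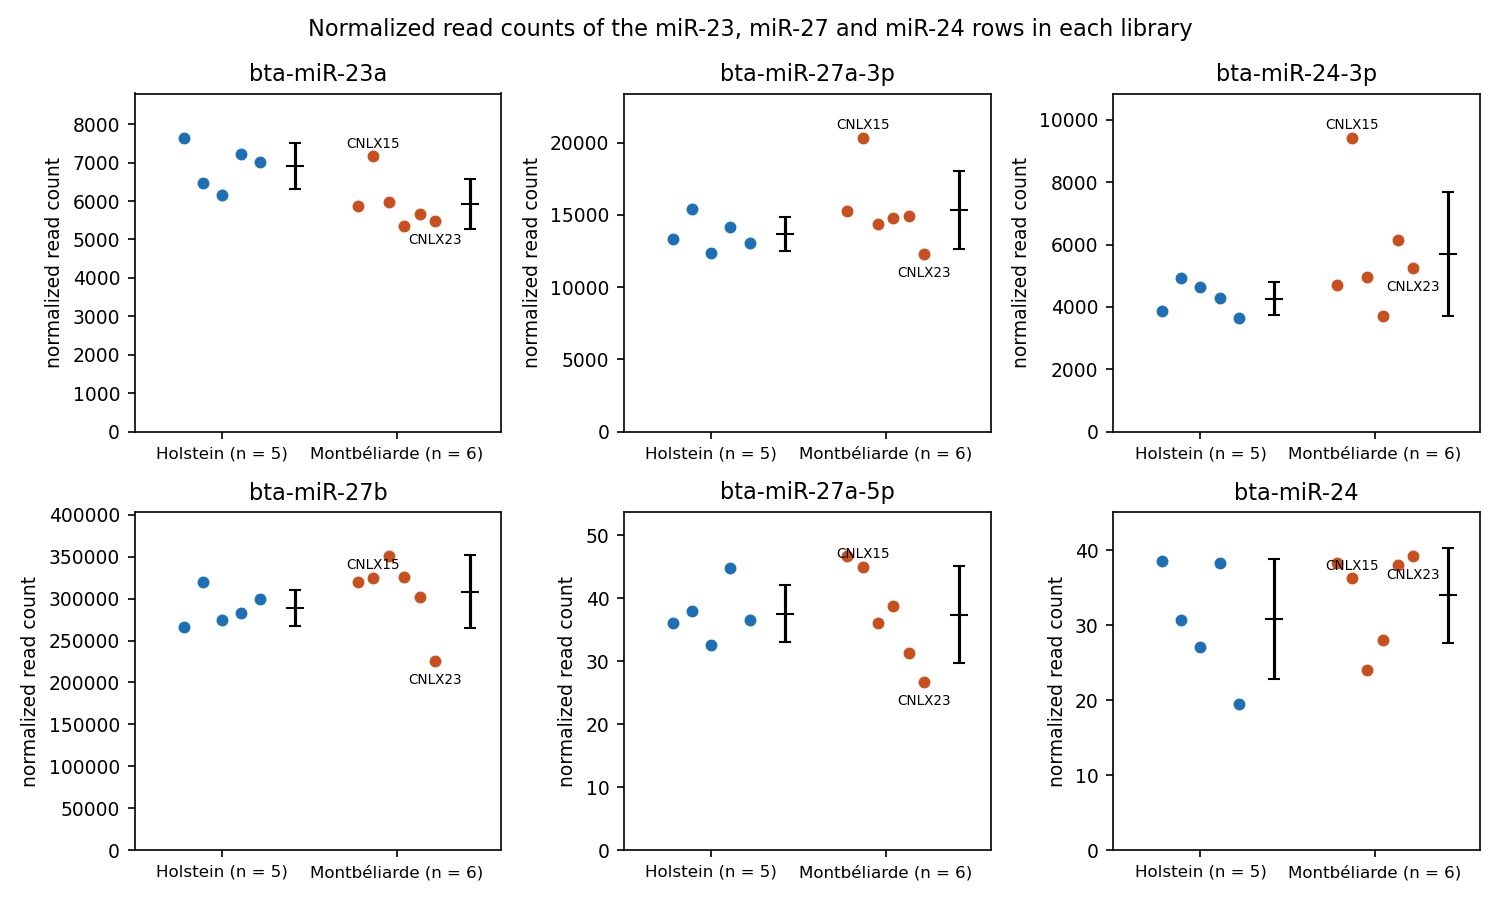
Normalized read counts (vertical axes, linear from 0) of the 6 miRNAs, with 1 point per library, Holstein in blue and Montbéliarde in orange, and bars giving the mean ± SD of each breed. The breeds overlapped for every miRNA, and CNLX15 stood highest for *miR-27a-3p* (20351) and *miR-24-3p* (9432).

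None of the 6 miRNAs differed between breeds at an adjusted p of 0.05 by edgeR's quasi-likelihood test, and 0 of 6 had an unadjusted p of at most 0.05. Over all 550 rows tested, 0.364% were called, and 78 rows had an unadjusted p of at most 0.05. DESeq2 and limma-voom also called 0 of the 6, with 1 and 0 of them, respectively, at an unadjusted p of at most 0.05. Over all rows, DESeq2 called 21 of the 432 with an adjusted p, and limma-voom called 2 of 550. The unadjusted p was at most 0.05 for 85 and 71 rows, respectively. The normalized read counts of the breeds overlapped for 6 of 6 miRNAs, while 2% of the rows tested had no overlap. The median log2 fold change, Montbéliarde over Holstein, was 0.11 over the 6 miRNAs and 0.03 over all rows tested. It was positive for 4 and negative for 2 of the 6.

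*miR-23a*, the cluster a miRNA known for repressing glutaminase, had 7649 normalized read counts in CNLX1, 6476 in CNLX3, 6155 in CNLX5, 7225 in CNLX7 and 7021 in CNLX9, the Holstein libraries. In Montbéliarde, its lowest level was 5353, its median 5762 and its highest 7165. In 5 of 6 Montbéliarde libraries the level lay below that of every Holstein library, and the exception was CNLX15. The log2 fold change was -0.23 (SE 0.13, 95% interval -0.51 to 0.04), with an adjusted p of 0.405 by edgeR's quasi-likelihood test. The negative sign held in every alternative run, with values from -0.28 to -0.13. With the summed stromal markers as a covariate, a setting chosen after the data were seen, it was -0.28, with an unadjusted p of 0.0331 and an adjusted p of 0.294 by edgeR. The unadjusted p was at most 0.05 in 2 of 19 alternatives, this setting among them, while the adjusted p stayed at 0.252 or above in all.

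*miR-27a-3p*, the cluster a miRNA known for repressing *PPARG*, was counted at 13368, 15391, 12377, 14158 and 13051 normalized reads in the Holstein libraries CNLX1, CNLX3, CNLX5, CNLX7 and CNLX9. Its lowest Montbéliarde level was 12276, in CNLX23, the median was 14867 and the highest 20351, in CNLX15. The lowest Montbéliarde library lay below all Holstein libraries and the highest above them, so the Holstein range fell within the Montbéliarde range. The log2 fold change was 0.16 (SE 0.14, 95% interval -0.14 to 0.46), with an adjusted p of 0.632 by edgeR. With the stromal markers as a covariate it was 0.04, and without CNLX3 it was 0.26.

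*miR-24-3p*, known for restraining the cell cycle, had the largest log2 fold change of the 6 in size. Its normalized read counts were 3861 in CNLX1, 4933 in CNLX3, 4633 in CNLX5, 4282 in CNLX7 and 3634 in CNLX9. The lowest Montbéliarde level was 3709, the median 5096 and the highest 9432. The level was above that of every Holstein library in 4 of 6 Montbéliarde libraries, and CNLX15 was the highest. The log2 fold change was 0.40 (SE 0.20, 95% interval -0.03 to 0.84), with an adjusted p of 0.366 by edgeR. Over the alternatives it ran from 0.16, with the stromal markers as a covariate, to 0.55, with the counted reads as a covariate. The stromal setting was chosen after the data were seen. Without CNLX15 the log2 fold change was 0.29, and without CNLX19 it was 0.54. In 5 of 19 alternatives the unadjusted p was at most 0.05, while the adjusted p stayed at 0.205 or above in all.

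*miR-27b*, which shares the known targets of *miR-27a-3p*, had 266588, 320372, 274276, 282786 and 299162 normalized read counts in the Holstein libraries, in the order of their tags. In Montbéliarde, the lowest level was 225411, in CNLX23, the median 322650 and the highest 350741, in CNLX17. CNLX23 lay below all Holstein libraries and 3 of 6 Montbéliarde libraries lay above them. The log2 fold change was 0.09 (SE 0.14, 95% interval -0.20 to 0.38), with an adjusted p of 0.811 by edgeR. Over the alternatives it ran from 0.04, with the counted reads of the library as a covariate, to 0.19, without CNLX3.

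The rows with few reads had the widest intervals. *miR-27a-5p*, the other arm of the *miR-27a* hairpin, had 32.6 to 44.8 normalized read counts in Holstein and 26.7 to 46.7 in Montbéliarde. Its log2 fold change was -0.03 (95% interval -0.50 to 0.44), and its sign changed among the alternatives. *miR-24*, whose name gives no arm, had 19.5 to 38.6 normalized read counts in Holstein and 24.02 to 39.2 in Montbéliarde, with a log2 fold change of 0.13 (95% interval -0.41 to 0.66). The latter ran from 0.004, without CNLX9, to 0.29, with the counted reads as a covariate. For both rows, differences in either direction within these intervals were not excluded.

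**Figure D2:**
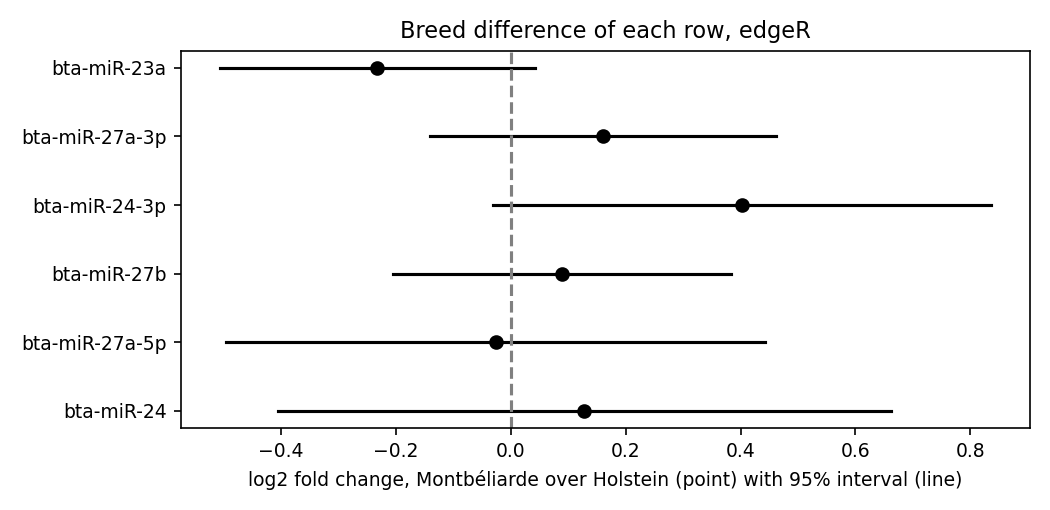
Log2 fold change between breeds (horizontal axis, Montbéliarde over Holstein) of the 6 miRNAs by edgeR, with points for the estimates and lines for the 95% intervals. All 6 intervals include 0, and those of *miR-23a* (-0.51 to 0.04) and *miR-24-3p* (-0.03 to 0.84) lie mostly on opposite sides of it.

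Ratios between rows of the same library need no scaling between libraries. The ratio of *miR-27a-3p* to *miR-27b*, which sets cluster a against cluster b, was 0.0474 ± 0.00294 in the 5 Holstein libraries against 0.0501 ± 0.00754 in the 6 Montbéliarde libraries (each ± SD). Its extremes were both Montbéliarde libraries, at 0.0410 in CNLX17 and 0.0626 in CNLX15. The mean log2 ratios differed by 0.07 (exact permutation test, two-sided, p = 0.528, adjusted p = 0.604 over 8 tests of breed on single measures). The difference was 0.003 without CNLX15 and 0.12 without CNLX17. These tests used all 462 ways to divide the libraries into 5 and 6, and cannot give a p below 0.00216.

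The ratios among *miR-23a*, *miR-27a-3p* and *miR-24-3p* were added after the values were seen, so their p-values are not independent evidence of a breed difference, and 0 of them passed the threshold after adjustment. The ratio of *miR-23a* to *miR-27a-3p* was 0.572, 0.421, 0.497, 0.510 and 0.538 in the Holstein libraries CNLX1, CNLX3, CNLX5, CNLX7 and CNLX9. In Montbéliarde the lowest ratio was 0.352, the median 0.381 and the highest 0.447, in CNLX23. The breeds overlapped through CNLX3 and CNLX23 alone, as the other 4 Holstein libraries lay above all Montbéliarde libraries. The mean log2 ratio was -0.99 ± 0.17 in the 5 Holstein libraries against -1.36 ± 0.13 in the 6 Montbéliarde libraries (each ± SD), a difference of -0.38. The exact permutation test, two-sided, gave p = 0.00866, and p = 0.0693 after adjustment over the 8 tests, which is above the threshold of 0.05. When libraries were left out singly, the difference ran from -0.44, without CNLX3, where the adjusted p was 0.0381, to -0.33, and the highest adjusted p was 0.127, without CNLX15.

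The ratio of *miR-23a* to *miR-24-3p* was 1.65 ± 0.319 in the 5 Holstein libraries against 1.10 ± 0.246 in the 6 Montbéliarde libraries (each ± SD). It was lowest in CNLX15 (0.760) and CNLX21 (0.922), the only libraries with more reads of *miR-24-3p* than of *miR-23a*. The log2 difference was -0.59 (exact permutation test, two-sided, p = 0.0195, adjusted p = 0.0779). Part of *miR-24-3p* may come from cluster b, which this ratio does not separate. The ratio of *miR-24-3p* to *miR-27a-3p* was 0.313 ± 0.0378 in the 5 Holstein libraries against 0.367 ± 0.0807 in the 6 Montbéliarde libraries (each ± SD), with a log2 difference of 0.21 (exact permutation test, two-sided, p = 0.234, adjusted p = 0.468).

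**Figure D3:**
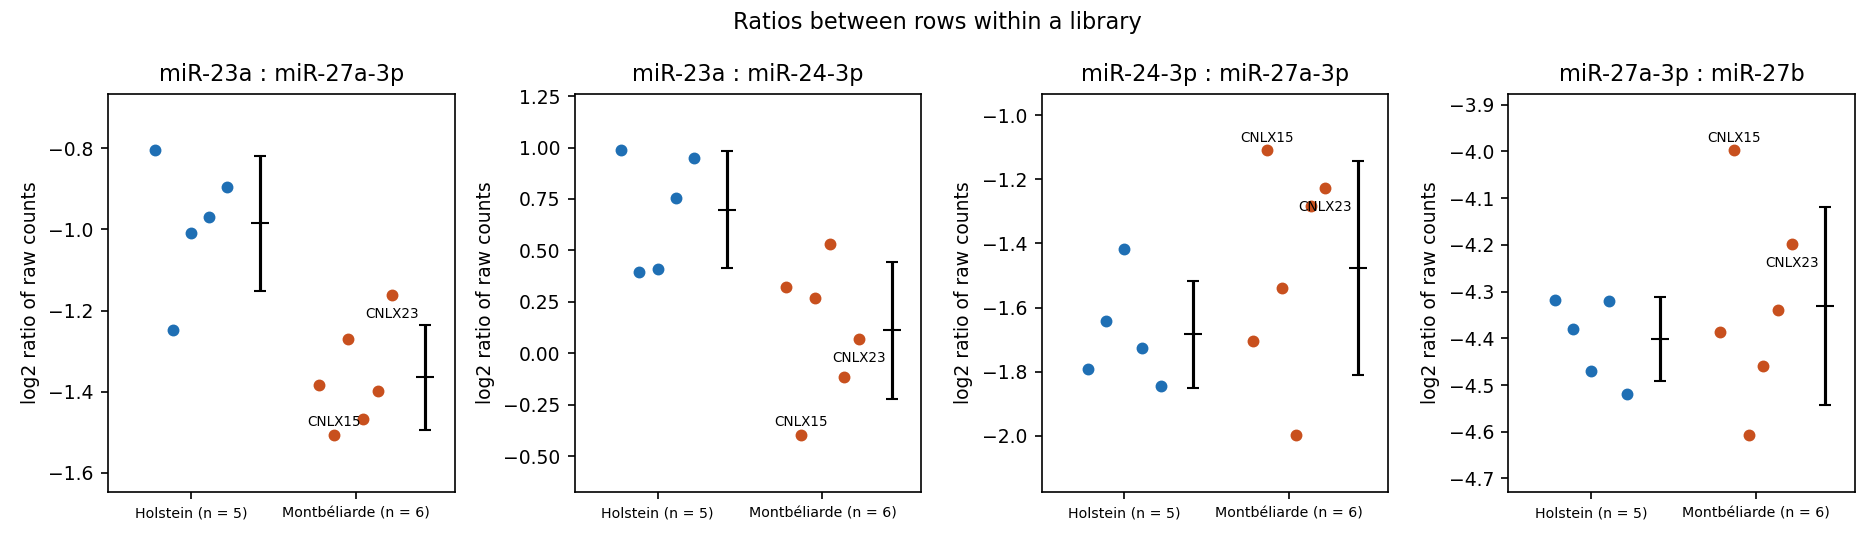
Log2 ratios of raw counts (vertical axes) between rows of the same library, with 1 point per library, Holstein in blue and Montbéliarde in orange, and bars giving the mean ± SD of each breed. The ratio of *miR-23a* to *miR-27a-3p* was -0.99 on average in Holstein and -1.36 in Montbéliarde, with an overlap through CNLX3 and CNLX23.

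No summed measure differed between breeds beyond the spread between cows. *miR-27b* alone held 3.05% of the counted reads, of 3.32% for the 6 miRNAs. It also made up most of the miR-27 sum, so both measures largely repeat its own result. The 6 miRNAs together held 3.21% ± 0.215 of the counted reads in the 5 Holstein libraries against 3.41% ± 0.329 in the 6 Montbéliarde libraries (each ± SD, exact permutation test, two-sided, p = 0.299, adjusted p = 0.478). The difference, 0.194 percentage points, was 0.0803 without CNLX19 and 0.125 without CNLX5. It was 0.226 with rows that share reads reduced to 1 (adjusted p = 0.384 by the exact permutation test). The sum of *miR-27a-3p* and *miR-27b* differed by 0.09 on the log2 scale (exact permutation test, two-sided, p = 0.457, adjusted p = 0.604). Without CNLX23, the lowest library in this sum, the difference was 0.17 (exact permutation test, two-sided, p = 0.0238, adjusted p = 0.0847). The sum of *miR-23a* and *miR-27a-3p*, of cluster a, differed by 0.04 (exact permutation test, two-sided, p = 0.794, also after adjustment). In this sum the log2 fold changes of *miR-23a* (-0.23) and *miR-27a-3p* (0.16) have opposite signs.

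The *miR-27a* hairpin was read almost entirely from its 3p arm. The 5p arm made up 0.274% ± 0.0262 of the reads of both arms in the 5 Holstein libraries against 0.243% ± 0.0359 in the 6 Montbéliarde libraries (each ± SD, exact permutation test, two-sided, p = 0.143, adjusted p = 0.381). Variation of the ratio of the arms beyond counting noise was not found over the 11 libraries (chi-square test, p = 0.675). With 24 to 68 reads of the 5p arm per library, the test could not tell a constant ratio from a varying one. The row *miR-24* held 0.673% ± 0.182 (SD, n = 11) of the reads of both miR-24 rows.

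Rows that share reads can look alike without being separate measurements, and this was checked for each of the 6 miRNAs. Rows were taken to share reads where their ratio stayed within 2% over the libraries, and no such pair included any of the 6. Among rows with a mean of at least 100 raw reads, 213 others were compared with *miR-23a*, *miR-27a-3p*, *miR-27b* and *miR-24-3p*. Of these, 0 were in a constant ratio (chi-square p over 0.05). At such read numbers this test finds almost any variation between cows, and it cannot detect rows that share part of their reads. By the same test, 37 of 214 rows were in a constant ratio with *miR-27a-5p* and 18 with *miR-24*. There, the read numbers were too low to tell a constant ratio from a varying one. *miR-27a-3p* and *miR-27b* are near copies of each other as family members, but their ratio ranged over 1.53 times between libraries, and their counts were not in a constant ratio. The assignment of reads that fit several miRNAs is not given in the sources used here.

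Members of the same cluster and members of different clusters were compared over the 11 libraries. In all, 23 relations were computed, 5 between members and 18 with marker sums, on log2(level + 1), and 0 of them passed an adjusted p of 0.05. The permutations ignored breed, so values over both breeds together also hold any difference between the breeds. Pearson's r between *miR-23a* and *miR-27a-3p* was 0.18 (permutation p = 0.619, adjusted p = 0.730) and Spearman's rho was 0.02 (permutation p = 0.967, adjusted p = 0.967). It was 0.42 without CNLX1 and CNLX7, the libraries farthest from the median of *miR-23a*. It was 0.87 within the 6 Montbéliarde libraries, where CNLX15 was highest in both, and -0.17 over all libraries but CNLX15. The sign over both breeds together thus rested on that library. The log2 fold changes between breeds of this pair have opposite signs (-0.23 and 0.16). No r within Montbéliarde without CNLX15 was computed. Holstein, with 5 libraries, had too few for a value of its own.

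*miR-27a-3p* and *miR-27b*, of different clusters, had an r of 0.63 (permutation p = 0.0484, adjusted p = 0.139) and a rho of 0.73 (permutation p = 0.0145, adjusted p = 0.167). The r was 0.67 without CNLX15 and CNLX23, 0.58 within Montbéliarde, and 0.38 on CPM, which are counts scaled to the library total (adjusted p = 0.585 by the permutation test). For *miR-24-3p* and *miR-27a-3p*, r was 0.72 (permutation p = 0.0281, adjusted p = 0.118) and rho was 0.41 (permutation p = 0.215, adjusted p = 0.573). Without CNLX15 and CNLX21 that r was 0.00, so the relation rested on these libraries, and within Montbéliarde it was 0.70. Between *miR-24-3p* and *miR-23a*, r was 0.01 (permutation p = 0.977, adjusted p = 0.977) and rho was -0.21 (permutation p = 0.538, adjusted p = 0.800). That r was 0.86 within Montbéliarde, -0.48 without CNLX15, -0.41 without CNLX15 and CNLX21, and -0.22 on CPM. Between *miR-24-3p* and *miR-27b*, r was 0.16 (permutation p = 0.619, adjusted p = 0.730) and rho was 0.18 (permutation p = 0.595, adjusted p = 0.804). It was 0.00 within Montbéliarde, -0.06 without CNLX15, -0.14 without CNLX15 and CNLX21, and -0.33 on CPM. Over both breeds together, neither the relation of *miR-24-3p* with *miR-23a* nor that with *miR-27b* kept its sign.

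Among the marker relations, *miR-24-3p* with the stromal sum had the highest r. Pearson's r was 0.88 (permutation p = 0.00287, adjusted p = 0.0660) and Spearman's rho was 0.56 (permutation p = 0.0766, adjusted p = 0.440). This r was 0.60 without CNLX15 (permutation p = 0.0639), 0.27 without CNLX15 and CNLX21, and 0.85 within Montbéliarde. Much of it thus came with these libraries, though leaving out the libraries farthest in the stromal sum also narrows its range. *miR-24-3p* with the leukocyte sum had an r of 0.70 (permutation p = 0.0117, adjusted p = 0.0897) and a rho of 0.43 (permutation p = 0.193, adjusted p = 0.573), with an r of 0.19 without the same libraries and of 0.73 within Montbéliarde. With the epithelial sum, its r was -0.62 (permutation p = 0.0359, adjusted p = 0.118) and its rho -0.45 (permutation p = 0.162, adjusted p = 0.573), while r was 0.11 without these libraries and -0.52 within Montbéliarde. CNLX15, the library highest in *miR-24-3p*, was thus the highest in stromal and leukocyte markers and among the lowest in epithelial markers, and the part of tissue make-up in its levels was not tested.

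The highest r of *miR-27b* with a marker list was that with the muscle sum. For the muscle list, 3 of 4 markers had a row, and most of their sum was *miR-133a*, with a mean of 882 normalized read counts. This r was 0.74 (permutation p = 0.00691, adjusted p = 0.0795), with a rho of 0.76 (permutation p = 0.00838, adjusted p = 0.167). It was 0.71 without CNLX3 and CNLX17, 0.79 within Montbéliarde, and 0.51 on CPM (adjusted p = 0.345 by the permutation test). The summed level of these muscle markers was low, between 473 in CNLX23 and 1805 in CNLX3, and CNLX23 was also the lowest library for *miR-27b*. The cluster a sum had an r of 0.76 with the stromal sum (permutation p = 0.0315, adjusted p = 0.118) and a rho of 0.40 (permutation p = 0.226, adjusted p = 0.573), with an r of 0.13 without CNLX15 and CNLX21 and of 0.90 within Montbéliarde.

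**Figure D4:**
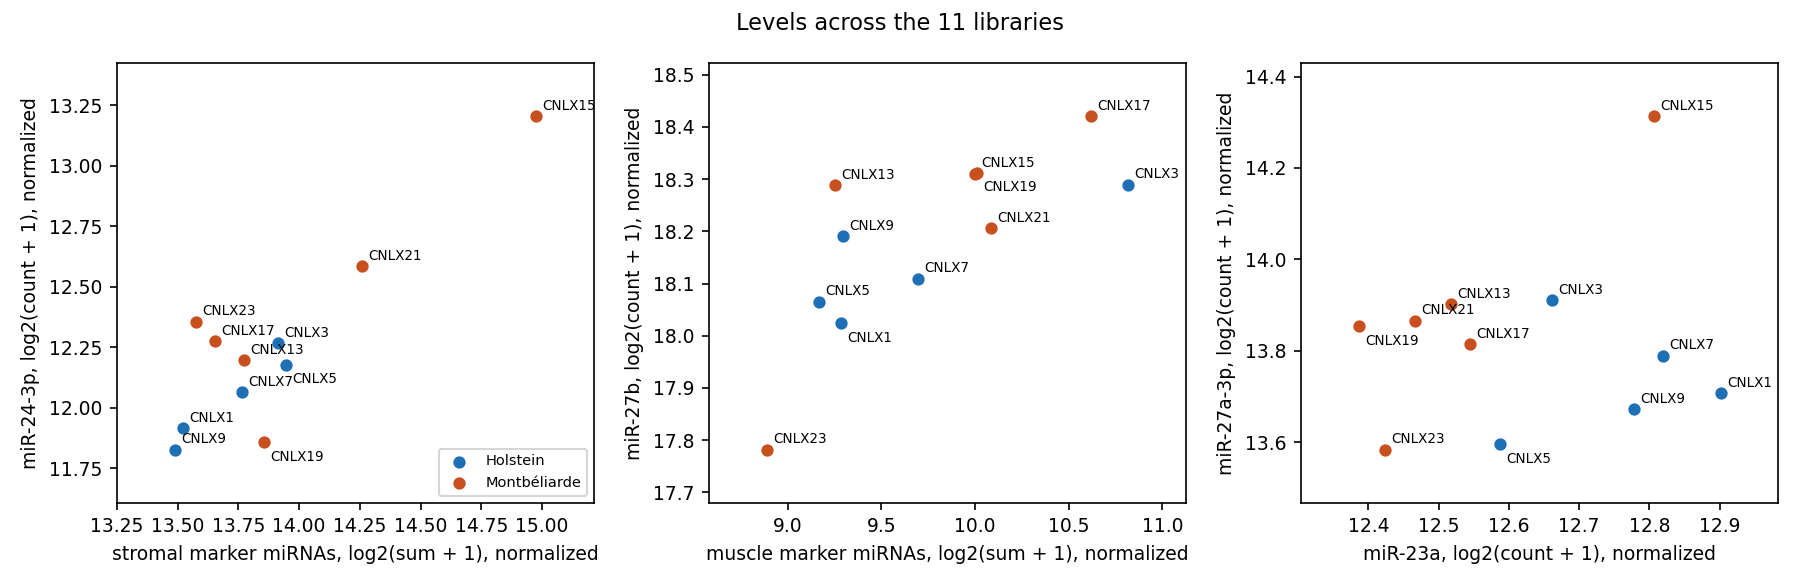
Log2 levels over the 11 libraries, with Holstein in blue and Montbéliarde in orange, of *miR-24-3p* against the stromal marker sum (left), *miR-27b* against the muscle marker sum (middle) and *miR-27a-3p* against *miR-23a* (right). CNLX15 lies apart at the upper right of the left panel, where r was 0.88 with it and CNLX21 and 0.27 without them, and r was 0.74 in the middle and 0.18 in the right panel.

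The miRNAs whose levels were most like each of the 4 abundant members had different names, which need not mean different patterns. They were sought among 210 other rows with a mean of at least 100 normalized read counts, by Pearson's r over the 11 libraries as a description. Such values share the libraries, their depth and their tissue make-up. For *miR-23a* they were *miR-16b* (r = 0.73), *miR-191* (0.70) and *miR-6119-5p* (0.66). For *miR-27a-3p* they were *miR-199a-3p* (0.89), *miR-3604* (0.89) and *miR-199a-5p* (0.87), of which *miR-199a-3p* and *miR-3604* share reads and count as 1 measurement. *miR-27b* was most like *miR-181a* (0.82), *miR-133a* (0.74) and *miR-143* (0.63). *miR-24-3p* was most like *miR-214* (0.95), *miR-218* (0.93) and *miR-100* (0.91). Of the named rows, *miR-199a-3p*, *miR-199a-5p* and *miR-214* belong to the stromal list and *miR-133a* to the muscle list. Stromal markers were thus among those most like *miR-27a-3p* and among those most like *miR-24-3p*, members with an r of 0.72 with each other. As *miR-133a* made up most of the muscle sum, its r with *miR-27b* largely repeats that of the sum. Without CNLX15, r was 0.68 between *miR-27a-3p* and *miR-199a-3p*, 0.86 between *miR-24-3p* and *miR-214*, 0.81 between *miR-27b* and *miR-181a*, and 0.78 between *miR-23a* and *miR-16b*.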

How the data were processed

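Raw counts per mature miRNA and library, and the normalized read counts, a signal obtained by dividing them by 1 size factor per library (DESeq2 1.18.1 per the labels), were deposited by the authors. According to the methods, the authors trimmed adaptors, kept reads of 15 to 40 nt and quantified them with ncPRO-seq and miRDeep2 on btau5.0.1 and miRBase 22.1. The authors' breed means, log2 fold changes, p-values and adjusted p-values were deposited as well and were not used.

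Counts of all rows with at least 10 reads summed over the 11 libraries were tested for breed in R 4.3.3 using edgeR 4.0.16 (TMM, robust glmQLFit, glmQLFTest, Benjamini-Hochberg over 550 rows, threshold 0.05). The SE and 95% interval were derived from the test statistic. DESeq2 1.42.0 and limma 3.58.1 were alternatives, beside RLE size factors, other filters, depth as a covariate, rows that share reads reduced to 1, and each library left out. Single measures had exact permutation tests, and correlations had permutation tests with 100000 resamples, adjusted over 23 relations for r and for rho separately. Scripts were tested on simulated counts. Plots were drawn with matplotlib 3.10.9.

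The members, marker lists and tests were chosen with earlier results of these data known. Named were all members with a row, the 3 most similar rows for each member with a mean of at least 100, and marker lists as sums. The planned ratio of *miR-23a* to *miR-23b-3p*, the sums for miR-23 and cluster b, and the relations with these were not computed, as *miR-23b* was not analysed here. *miR-27b* stood in for cluster b in the marker relations. Mature sequences were not used here, so rows that share a seed were not sought. Gene names come from RefSeq (ARS-UCD2.0). Depth, as counts summed over all rows, was 6087865 to 16808976 counted reads per library. Each library is 1 cow by the labels and methods. The tests of breed and of correlation take the cow as the unit, while the chi-square tests compare counts with counting noise alone.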

Additional observations from a re-analysis of the deposited data

Results flagged for a closer look

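In 2 of 40 groups of libraries examined, 1 library lay far from the others of its breed. Chance alone puts about 1 in 20 groups past this limit. *miR-23a* had 7165 normalized read counts in the Montbéliarde library CNLX15, and the nearest Montbéliarde library had 5973, a gap of 0.658 of the whole range of the breed. The summed level of *miR-27a-3p* and *miR-27b* was 17.86 on the log2 scale in the Montbéliarde library CNLX23, and 18.28 in the nearest, a gap of 0.672 of the range.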

How the results depend on the processing

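No paired analysis was possible because the breeds share no replicate number. In all alternatives, 0 of the 6 miRNAs passed the threshold. Over all rows, edgeR called 2, DESeq2 called 21, edgeR with RLE size factors called 0, edgeR with rows that share reads reduced to 1 called 0, and edgeR with each library left out called 0 to 6. The causes were not tested. The log2 fold change of *miR-27a-5p* (-0.03) was 0.030 with rows that share reads reduced to 1, and ran from -0.099 to 0.070 with each library left out. That of the cluster a sum (0.04) ran from -0.040 to 0.086, and was negative without CNLX5 or CNLX15. With each library left out, the breed difference of the log2 ratio of *miR-27a-3p* to *miR-27b* ran from 0.003 to 0.12, that of the miR-27 sum from 0.05 to 0.17 and that of the read share from 0.0803 to 0.274 percentage points, with no adjusted p below 0.05. The log2 ratio of *miR-23a* to *miR-27a-3p* differed by -0.44 to -0.33 between breeds, with an adjusted p below 0.05 without CNLX3 alone. Of the 18 relations with marker sums, 0 to 2 passed the threshold with each library left out. Without CNLX13 this was *miR-27b* with muscle (r = 0.84), without CNLX19 *miR-24-3p* with stromal (0.92), and without CNLX23 *miR-24-3p* with stromal (0.93) and with leukocyte (0.80) markers. On CPM, 0 of the 23 relations passed. There, r was 0.84 for *miR-24-3p* with stromal markers, 0.61 with leukocyte and -0.72 with epithelial markers, 0.57 for *miR-24-3p* with *miR-27a-3p*, 0.07 for *miR-23a* with *miR-27a-3p*, and 0.52 for the cluster a sum with stromal markers. The spread between cows limits the abundant miRNAs, and counting error also limits *miR-27a-5p* and *miR-24*.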
